A study of Mus musculus with 10 samples.

Results

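The genes described are 8 of the 28808 gene symbols in the count tables, those of antigen presentation by MHC class I, of the immune form of the proteasome and of Ubd. They were chosen by gene name, with earlier results of these data known: the class I heavy chains H2-K1 and H2-D1, their light chain B2m, the peptide transporter subunit Tap1, the immunoproteasome catalytic subunits Psmb8, Psmb9 and Psmb10, and Ubd. All 8 symbols were present in the tables. The material was kidney cortex of mice aged 4 weeks, sequenced as single cells by Drop-seq in 10 libraries. The control group came from normal kidneys and had 1 library. Injured kidneys gave 1 library each on days 1, 2 and 4 and 2 libraries each on days 7, 11 and 14. The labels give no kind of injury, strain, sex, genotype or animal for any group.

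MHC class I molecules carry peptides from inside the cell to its surface, where cytotoxic T cells and natural killer cells read them. The proteasome cuts proteins into such peptides, and after exposure to interferon its standard catalytic subunits are replaced in newly made particles by Psmb8, Psmb9 and Psmb10. Tap1 with Tap2 moves the peptides into the endoplasmic reticulum, and B2m is needed for the heavy chain to fold and reach the surface. Ubd (FAT10) is a ubiquitin-like protein, inducible by interferon gamma and tumour necrosis factor, that marks proteins for the proteasome. In the kidney, tubular cells normally carry little class I, and endothelial cells and resident macrophages carry more.

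Of the 8 genes, 6 lie on chromosome 17 in the GENCODE M21 annotation of GRCm38 (mm10), the build named in the submitters' processing notes. H2-K1 spans chr17:33996017-34000347 on the minus strand and H2-D1 chr17:35262730-35267499 on the plus strand. Psmb9 (chr17:34181987-34187764, minus) and Tap1 (chr17:34187553-34197225, plus) lie head to head and overlap by 212 bases, and Psmb8 follows at chr17:34197721-34201454 on the plus strand. Ubd lies further along at chr17:37193892-37196095, plus strand. B2m is on chromosome 2 (122147686 to 122153083, plus), inside Patl2 on the other strand, and Psmb10 is on chromosome 8 (105935735 to 105938444, minus), where Gm16156 overlaps it on the other strand over its whole 2710 bases. Gm20496, also on the other strand, overlaps Psmb8 by 2139 bases. Whether the authors counted by strand is not given in the sources used here, so reads of such overlapping genes cannot be told apart. Reads of H2-K1 and H2-D1 can also be divided among near-identical class I genes, and their levels are uncertain to that extent.

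The promoter stretches below are shown because they hold every match, in the RefSeq window of 300 bases around each start, to the motifs of the factors that carry interferon and NF-kB signals. Sequences are RefSeq's, from GRCm38.p6, 5′ to 3′ on the strand of the gene, and capitals mark the matched letters.
H2-K1: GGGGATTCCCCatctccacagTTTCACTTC
H2-D1: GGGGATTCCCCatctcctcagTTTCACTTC
B2m: catGAAACTGAAAatGGGAAAGTCCCtttg
Psmb8: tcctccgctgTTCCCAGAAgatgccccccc
The H2-K1 stretch (chr17:34000429-34000458, minus) runs from 111 to 82 bases before the upstream one of 2 starts that RefSeq gives this gene and from 125 to 96 before the other, and the H2-D1 stretch (chr17:35262923-35262952, plus) from 171 to 142 bases before it. They are identical at 29 of 30 bases and differ by A18T, with H2-K1 first and positions counted from the 5′ end of the stretch. The B2m stretch (chr2:122147545-122147574, plus) lies 142 to 113 bases before the start and the Psmb8 stretch (chr17:34198088-34198117, plus) 107 to 78 bases before it. These distances are counted from RefSeq's own start of each gene. For H2-D1 and Psmb8 that start lies inside the GENCODE span given above, so their stretches lie within those spans and not ahead of them.

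Motifs were searched on both strands. The NF-kB motif, GGGA and CC with any 4 bases between them, matched in H2-K1, H2-D1 and B2m, 3 of 8 members, and in 20.7% of all 32851 RefSeq promoter windows of this length. In H2-K1, H2-D1 and B2m it matched at 2 overlapping positions. The core of the interferon-stimulated response element, GAAA, any 2 bases and GAAA again, matched in B2m alone, against 3.44% of all windows. The gamma-activated site TTCNNNGAA matched in Psmb8 alone, against 8.30% of all windows. A closer-spaced form of the interferon element, GAANNGAAA, was added after the data had been seen. It matched in H2-K1 and H2-D1, where it appears as the reverse complement TTTCACTTC, and in 7.52% of all windows. Neither form contains the other. The windows of Tap1, Psmb9, Psmb10 and Ubd held none of these letters, which says nothing of binding by any factor.

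The tables held 173806985 unique molecular identifiers (UMIs, counted molecules) in 64803 barcodes, from 7091848 to 31632205 per library, and 52797 cells were kept. Cells were assigned to classes by counting marker genes: 40553 cells were tubular-like, 3778 macrophage-like and 2026 endothelial-like, and the shorter names below stand for these resemblances. The median share of mitochondrial UMIs was 23.6% in the control, 3.64% and 4.32% in the day 7 libraries and 7.10% to 18.7% in the others. The day 11 tables went down to 300 genes per barcode and the others to 500, and 5362 and 5424 barcodes of the day 11 libraries were left out by the limit of 500 genes. No pair of libraries shared more than 11 cell barcodes. Levels are given as CPM, a gene's counts scaled to a common total per library, over all cells of a class in a library, and 3′ counting gives a level that does not grow with gene length. The tubular sums held 1579 to 6418 cells.

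In tubular cells all 8 genes were low in the control, and all 8 rose by day 7. In CPM scaled by library totals the rise ran from 9.64-fold for Psmb10 to 628-fold for Ubd, and after the TMM scaling of edgeR, which is used for the tests below, from 5.65-fold to 369-fold. The class I heavy chain H2-K1 stood at 64.1 CPM in the control and at 395, 569 and 1671 on days 1, 2 and 4. The day 7 libraries gave 1390 and 1696 CPM of H2-K1, the day 11 libraries 107 and 77.9, and the day 14 libraries 325 and 224. The H2-K1 level was therefore high on days 4 and 7, low again on day 11, and between these on day 14, with no overlap between the libraries of days 7, 11 and 14. For H2-D1, the second classical heavy chain measured, the control gave 70.3 CPM and days 1, 2 and 4 gave 240, 323 and 1376. The day 7 libraries gave 1209 and 1171 CPM of H2-D1, those of day 11 gave 93.1 and 122, and those of day 14 gave 91.4 and 90.4. The day 14 libraries of H2-D1 lay just below those of day 11, unlike those of H2-K1. For the shared light chain B2m the control gave 261 CPM, days 1, 2 and 4 gave 921, 1900 and 4861, and day 7 gave 3513 and 3512. B2m then stood at 430 and 383 CPM on day 11 and 1273 and 800 on day 14, so that it followed the order of H2-K1.

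**Figure D1:**
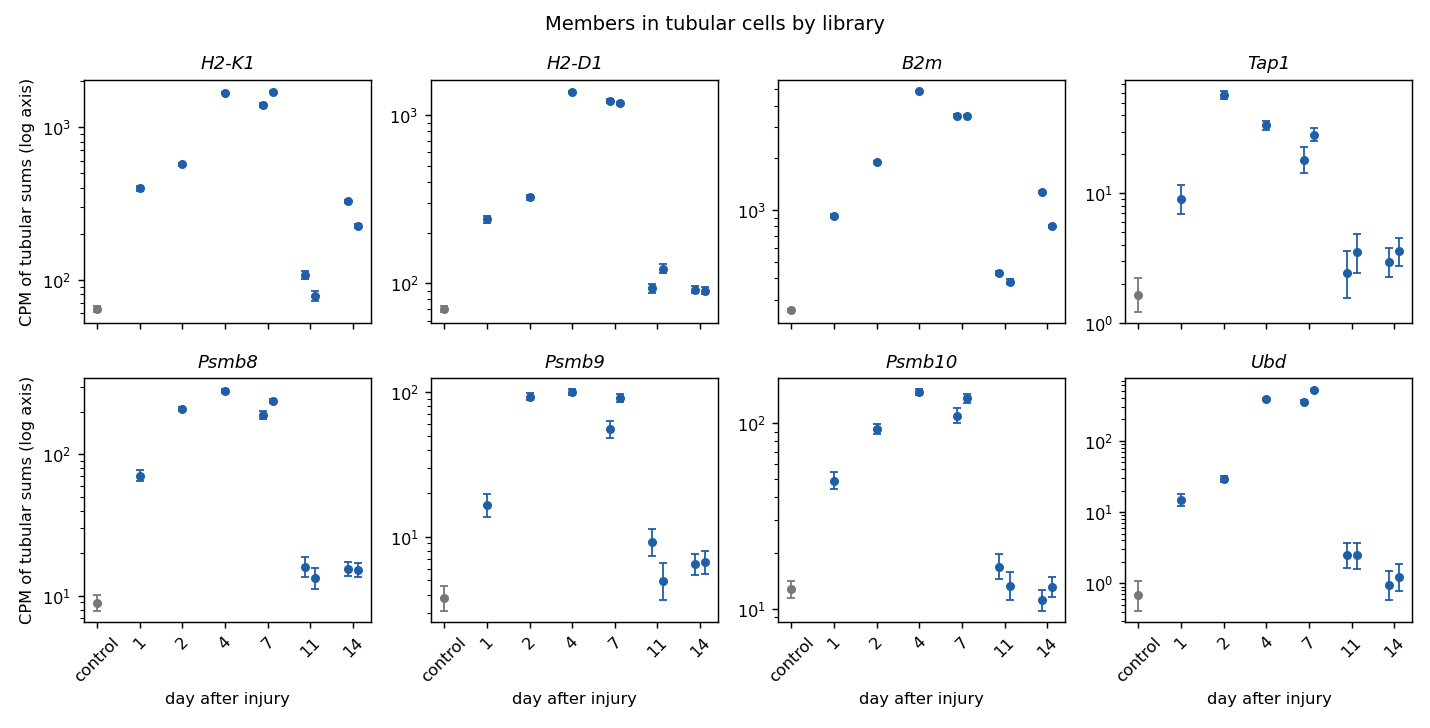
Levels of the 8 genes in tubular cells by day after injury, as CPM on a log axis whose range differs between the genes, with 1 point per library (control in grey) and exact 95% Poisson bars that cover counting error only. Days 4 and 7 are high and days 11 and 14 low for each gene but Tap1, which is highest on day 2, and H2-K1 and B2m lie higher on day 14 than on day 11.

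The genes that make and load the peptides were far lower in level but had a like course. For the transporter subunit Tap1 the tubular level was 1.66 CPM in the control, from 46 UMIs, and 9.05, 57.8 and 33.7 on days 1, 2 and 4. Tap1 gave 18.2 and 28.4 CPM in the day 7 libraries, 2.43 and 3.51 in those of day 11, and 2.97 and 3.58 in those of day 14. Its highest library was day 2, earlier than that of any other member. The chymotrypsin-like subunit Psmb8 gave 8.92 CPM in the control, 70.3, 209 and 279 on days 1, 2 and 4, and 189 and 237 on day 7. Psmb8 was at 16.1 and 13.3 CPM on day 11 and 15.5 and 15.3 on day 14. Psmb9, the partner that replaces the caspase-like subunit, gave 3.78 CPM in the control, 16.5, 92.9 and 99.4 on days 1, 2 and 4, and 55.3 and 90.6 on day 7. Psmb10, which replaces the trypsin-like subunit, gave 12.8 CPM in the control, 49.0, 93.1 and 147 on days 1, 2 and 4, and 110 and 136 on day 7. On days 11 and 14 the libraries of Psmb9 lay between 4.95 and 9.20 CPM and those of Psmb10 between 11.1 and 16.9. The Psmb10 libraries of day 14 lay on either side of the control.

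Ubd had the widest range of the 8. Its tubular level was 0.684 CPM in the control, from 19 UMIs in 6 of 5397 cells, and 14.9, 29.5 and 385 CPM on days 1, 2 and 4. The day 7 libraries gave 355 and 513 CPM of Ubd, the day 11 libraries 2.53 and 2.47, and the day 14 libraries 0.959 and 1.23. On days 4 and 7 Ubd was thus above Psmb8 in level, while in the control it was the lowest of the 8. The tubular sums behind these Ubd levels held from 4177579 to 27792578 UMIs per library.

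The changes were tested on the tubular sums with edgeR's quasi-likelihood test, fitted to all 10 libraries and adjusted by the Benjamini-Hochberg method over the 16219 genes tested, with calls at 0.05. The spread came from the days with 2 libraries, which left 3 residual degrees of freedom beside the 7.46 that edgeR borrowed from the spread over all genes, and the lone control was assumed to vary like them. The TMM factors were 0.824 for the control and 1.44 and 1.39 for day 7. They centre the median gene near 0, so a tested change is relative to the median gene, whereas CPM is relative to the total. With library totals in place of TMM, an alternative added after the data had been seen, the median log2 change of all genes was 0.81 on day 7 against the control, -0.84 from day 7 to day 11 and -0.87 from day 7 to day 14. The labels do not say whether the 2 libraries of a day are separate animals, and the p-values measure only the spread between these libraries. Against the control, 8 of 8 members were higher on day 7, where 16.4% of all genes tested were called higher (47.5% with library totals), and the members' median log2 change was 3.41 against 0.04 over all genes (4.18 against 0.81 with library totals, where 8 of 8 were also called). Ubd rose by 8.53 on the log2 scale (SE 0.42, edgeR quasi-likelihood adjusted p = 2.48e-06). H2-K1 rose by 3.82 (SE 0.34), H2-D1 by 3.30 (SE 0.27) and B2m by 2.98 (SE 0.32). Psmb8 rose by 3.81 (SE 0.27), Psmb9 by 3.51 (SE 0.41), Psmb10 by 2.50 (SE 0.26) and Tap1 by 3.07 (SE 0.37). The 7 members other than Ubd had edgeR adjusted p from 8.76e-06 for Psmb8 to 0.000150 for Tap1.

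Other cells' transcripts were also higher in the tubular sums on day 7. Of the 12 macrophage markers, 11 were in these tables and all 11 had UMIs in tubular cells, with a summed level of 9.03 CPM in the control and 298 and 124 on day 7, against 17344 and 19260 in the macrophages of the same day 7 libraries. The 13 markers of T and NK cells summed to 12.5 CPM in the control and to 66.1 and 84.5 on day 7, with the NK receptor gene Klrb1c at 0 in both day 7 libraries. Among tubular cells with no UMI of any macrophage, neutrophil, T, NK or B cell marker, a selection made after the data had been seen, all 87 values recomputed for the members kept their side of the threshold, and 81 also their sign. The 6 that changed sign were not called in either case. With cells limited to 25% mitochondrial UMIs all 132 values kept their side of the threshold and 131 their sign, and the part that the lower mitochondrial share on day 7 has in the levels was otherwise not tested.

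By day 11 the members had fallen from day 7, 8 of 8 against 21.1% of all genes called lower (8 of 8 against 52.2% with library totals). The edgeR log2 change from day 7 to day 11 was -6.67 (SE 0.28) for Ubd, -3.30 (SE 0.25) for H2-K1, -3.09 (SE 0.20) for Psmb8 and between -2.69 and -2.24 for the other 5. Against the control, Ubd alone was higher on day 11, 1 of 8 against 8.93% of all genes, by 1.85 on the log2 scale (SE 0.42, edgeR quasi-likelihood adjusted p = 0.0161). That count is near the share of all genes, so nothing particular to the members is read from it. The call rests on 25 and 24 Ubd UMIs in 18 and 15 tubular cells of day 11, against 19 UMIs in 6 control cells. Without the second day 11 library the edgeR adjusted p for Ubd was 0.0643. The other 7 had log2 changes from 0.23 for Psmb10 to 0.90 for Psmb9 without passing the test. Some alternatives called more members higher, H2-D1 and Psmb8 with the top 5% of barcodes removed and Psmb9 with only the groups compared. Psmb8 was also called in proximal cells alone and without either day 7 library.

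On day 14 H2-K1 and B2m passed the test against both day 11 and the control. All 8 members were still lower than on day 7, against 21.7% of all genes called lower (56.8% with library totals), from -7.78 for Ubd to -0.91 for B2m on the log2 scale. For B2m this drop was -0.61 without the second day 14 library, with an edgeR adjusted p of 0.102, and with library totals it was -1.76. H2-K1 and B2m rose again between days 11 and 14, 2 of 8 against 6.44% of all genes (4.19% with library totals), H2-K1 by 1.66 (SE 0.24, edgeR quasi-likelihood adjusted p = 0.00321) and B2m by 1.43 (SE 0.22, edgeR quasi-likelihood adjusted p = 0.00436). The same 2 genes were called higher than the control on day 14, against 4.35% of all genes (3.40% with library totals), H2-K1 by 2.18 (SE 0.31) and B2m by 2.07 (SE 0.30), with an edgeR adjusted p of 0.00556 for each. H2-D1, which pairs with the same light chain, had a log2 change of -0.16 from day 11 to day 14 and 0.45 from the control to day 14, neither past the test. From day 11 to day 14 the log2 changes of Tap1, Psmb8, Psmb9 and Psmb10 lay between -0.24 and 0.22, none past the test. That of Ubd was -1.11 with an edgeR adjusted p of 0.0579, and by DESeq2 it was -1.16 with an adjusted p of 0.0302. With library totals Ubd was called lower, with a change of -1.19 (edgeR adjusted p = 0.0433).

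In CPM, both day 14 libraries lay above the control for each member but Psmb10. How many of all genes lay so was not counted, so nothing particular to the members is read from it. For Ubd it rests on 20 and 23 UMIs on day 14 and 19 in the control. Psmb8 missed the threshold narrowly, with a log2 change from the control of 0.86 (edgeR adjusted p = 0.0523). It was called with the top 5% of barcodes removed (edgeR adjusted p = 0.0167), with only the groups compared (0.0164) and without either day 7 library (0.0201 and 0.0200). Tap1 had a change of 1.06 (edgeR adjusted p = 0.102) and was called without either day 7 library (0.0471 and 0.0486). Neither Psmb8 nor Tap1 was called under any alternative not named for it here, and no day 7 library is in either group compared. The changes of Psmb9 and Ubd were 0.87 and 0.74, neither past the test.

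The wider pathway was read from 6 lists chosen by function. Genes were named from each list by size of change among those called, and the lists were chosen with earlier results of these data known. In tubular cells on day 7 against the control, 7 of the 7 tested class I genes outside the members were called higher by edgeR, with a median log2 change of 2.84. Over all genes tested 16.4% were called higher, with a median of 0.04 (47.5% and 0.81 with library totals). H2-Q7, a class Ib gene, rose by 5.13 (SE 0.41), H2-Q6 by 3.77 (SE 0.50) and Cd1d1, which presents lipids, by 3.50 (SE 0.63), the last from 6 control UMIs. Of the 8 peptide loading genes and class I partners, 4 were higher and 1 lower, with a median of 1.24. Among them Nlrc5, the class I transactivator, had 3 UMIs in the control and 10 and 54 on day 7, 0.108 against 2.39 and 5.12 CPM. Tapbpl, a peptide editor, rose by 2.31 (SE 0.25) and Tap2, the partner of Tap1, by 1.91 (SE 0.24), while the general chaperone Canx fell by 1.05 (SE 0.20) relative to the median gene. With library totals Canx had a change of -0.27 and was not called, and 6 of the 8 were called higher and 0 lower (edgeR).

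Calls in the rest of the proteasome depended on the scaling. Over all genes tested 18% were called lower in this comparison, and 6.94% with library totals. Of the 5 activator and assembly genes, Psme1 and Psme2, which form the interferon-inducible cap, rose by 1.24 (SE 0.22) and 1.29 (SE 0.22) on the log2 scale on day 7, and Psme4, another activator, fell by 1.69 (SE 0.24). These 3 calls held with library totals, with changes of 2.01, 2.06 and -0.91. The constitutive catalytic subunits are those that Psmb8, Psmb9 and Psmb10 replace. Of these, Psmb5 and Psmb7 were called lower relative to the median gene, with changes of -0.84 (SE 0.22) and -0.71 (SE 0.22), and Psmb6 had a change of 0.00 and was not called. With library totals Psmb5 was at -0.06 and Psmb7 at 0.07, neither called, and Psmb6 was called higher by 0.77. Of the 11 other subunits of the 20S core, edgeR called 0 in either direction, with 0 at an unadjusted p under 0.05 and 0 by DESeq2. Their median was -0.14. With library totals 10 of these 11 were called higher by edgeR, with a median of 0.63, below the 0.81 of all genes. By DESeq2, Psmb5 alone of the 3 constitutive catalytic subunits was called lower (adjusted p = 0.00445), and Psmb7 was not (adjusted p = 0.0586).

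Of the 19 interferon and NF-kB genes tested, 16 were higher on day 7 and none lower by edgeR, with a median of 2.37, and DESeq2 called 15 higher. With library totals 19 of the 19 were called higher, where 47.5% of all genes were (16.4% with TMM scaling). Gbp2, an interferon-induced GTPase, rose by 5.47 (SE 0.51) and Irf7, a transcription factor of the interferon response, by 4.86 (SE 0.94). Cxcl9, a chemokine, had 0 UMIs in the control, which allows up to 3, and stood at 4.79 and 9.95 CPM on day 7. Named here after their values were seen, Irf1 rose by 2.37 (SE 0.26), and the NF-kB subunits Relb by 3.55 (SE 0.31) and Nfkb2 by 2.75 (SE 0.27).

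The early days, with 1 library each, have no test, and their values are given as ratios of CPM with exact 95% intervals that cover counting error only. They are scaled by library totals, so the 628-fold rise of Ubd on day 7, and not the TMM-scaled one, is the value on their scale. In tubular cells Tap1 was 5.47 times its control level on day 1 (3.68 to 8.18), 34.9 times on day 2 (25.9 to 48.1) and 20.4 times on day 4 (15.1 to 28.1). Ubd was 21.9 times its control level on day 1 (13.3 to 37.8), 43.2 times on day 2 (27.3 to 72.5) and 563 times on day 4 (360 to 936). From day 2 to day 4, therefore, Tap1 and Ubd went opposite ways in these libraries. Tap1 was on day 4 at 0.583 times its day 2 level (0.525 to 0.649), while Ubd was at 13.0 times (11.8 to 14.5).

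The other members lay between these 2 genes, the class I chains above the proteasome subunits. From day 2 to day 4 H2-D1 was at 4.25 times (4.12 to 4.39), H2-K1 at 2.94 times (2.86 to 3.01) and B2m at 2.56 times (2.52 to 2.59). The proteasome subunits had smaller ratios, 1.57 for Psmb10, 1.33 for Psmb8 and 1.07 for Psmb9, the last with an interval of 0.995 to 1.15 that includes no change. From day 1 to day 2 the ratios were highest for Tap1 at 6.38 times (4.93 to 8.38) and Psmb9 at 5.62 times (4.64 to 6.87) and lowest for H2-K1 at 1.44 times and H2-D1 at 1.35 times. That of Ubd was 1.97 times (1.59 to 2.48), beside 1.90 for Psmb10 and 2.06 for B2m. The highest tubular library was day 2 for 1 member (Tap1), day 4 for 5 and the second day 7 library for 2 (H2-K1 and Ubd).

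The day of the highest level differed among kinds of tubular cell. In thick ascending limb cells Tap1, Psmb8, Psmb9 and Psmb10 were all highest on day 2, with Psmb8 at 436 CPM on day 2 and 137 on day 4, a ratio of 0.313 (0.248 to 0.396). The same 4 genes were highest on day 2 in tubular cells with neither a Vcam1 nor a Havcr1 UMI, where Psmb8 was at 208 and 150 CPM, a ratio of 0.721 (0.667 to 0.779). In tubular cells with a Vcam1 UMI, which are described further on, Psmb8 was at 270 CPM on day 2 and 419 on day 4, a ratio of 1.55 (1.41 to 1.72). In proximal tubule cells Tap1 alone was highest on day 2, and Psmb8 had a ratio of 1.70 (1.57 to 1.83). The share of tubular cells with a Vcam1 UMI went from 6.13% on day 2 to 32.3% on day 4, and its part in the course of the tubular sums was not tested.

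**Figure D2:**
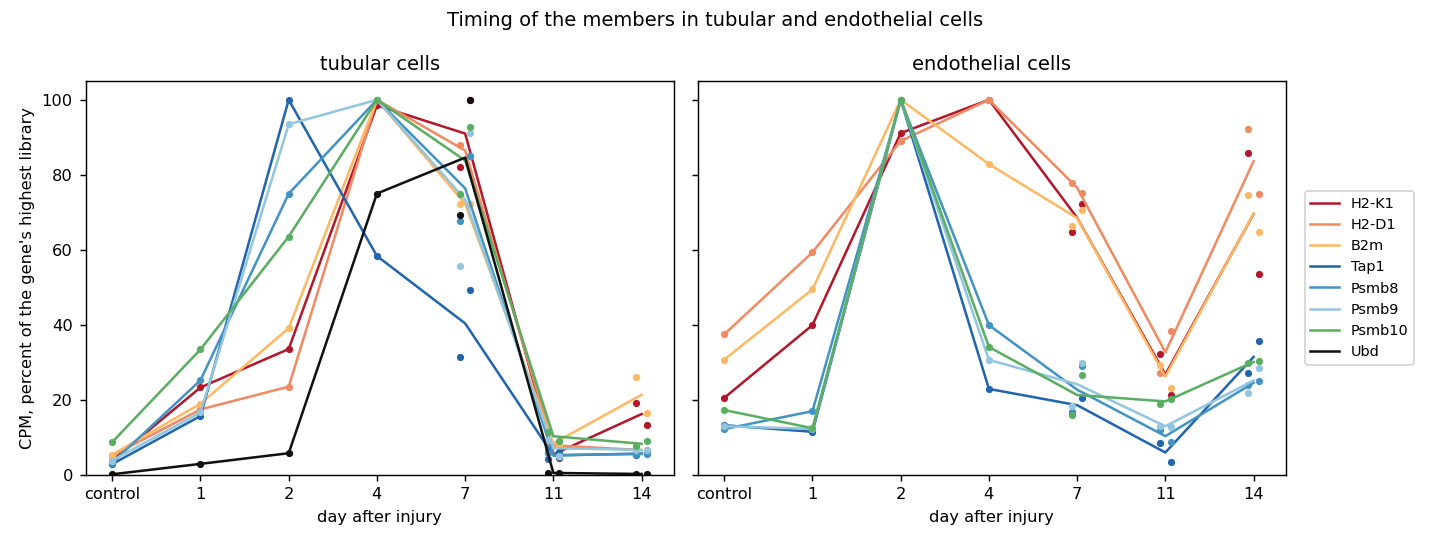
Level of each gene as a percent of its highest library, in tubular (left) and endothelial cells (right) by day after injury, with 1 point per library and lines through the mean of each day, and with Ubd drawn for tubular cells only. In endothelial cells Psmb8, Psmb9, Psmb10 and Tap1 are highest on day 2 and much lower on day 4, while H2-K1 and H2-D1 are highest on day 4, and in the sum of all tubular cells Tap1 alone is highest on day 2.

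In endothelial cells and macrophages the proteasome subunits and Tap1 had day 4 to day 2 ratios below 1 and below that of H2-K1, and the classes were not compared by a test. In endothelial cells Psmb8 went from 1577 to 629 CPM, a ratio of 0.399 (0.328 to 0.483), Psmb9 had a ratio of 0.306 (0.221 to 0.415), Psmb10 0.341 (0.242 to 0.469) and Tap1 0.229 (0.112 to 0.421). H2-K1 and H2-D1 in the same cells had ratios of 1.10 (0.987 to 1.22) and 1.12 (1.03 to 1.22). That of B2m was 0.828 (0.786 to 0.873), so the light chain was lower on day 4, unlike in tubular cells. In macrophages the ratios were 0.677 for Psmb8, 0.586 for Psmb9, 0.641 for Psmb10 and 0.572 for Tap1, against 1.3996 for H2-K1. The endothelial maximum was on day 2 for 5 members and on day 4 for 3.

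Levels before injury differed widely between the classes. In the control, H2-K1 was highest in macrophages at 535 CPM and endothelial cells at 509, whose intervals overlap, and lowest in proximal tubule cells at 42.4, just below distal convoluted tubule cells at 54.2, with which the interval overlaps. For Psmb8 the order was macrophages at 424 CPM, endothelial cells at 192 and proximal tubule cells at 2.49. On day 7 the order of H2-K1 began with T and NK cells at a mean of 2268 CPM, followed by macrophages at 1708, endothelial cells at 1700, cells with injured-tubule markers at 1675 and proximal tubule cells at 1574. The ranges of these last 4 overlap in turn, while collecting duct principal cells (957), thick ascending limb cells (895) and stromal cells (489) lay below them. The injured-tubule panel held Havcr1 and Krt20 but also genes of kidney epithelium at large, such as Epcam, Cdh16 and Pax8. A cell could thus join that class with no UMI of an injury gene. For B2m on day 7 the immune and endothelial classes lay between 7183 and 7689 CPM and proximal tubule cells at 4184, still apart.

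Within libraries, endothelial cells had more of 7 of the members than tubular cells, where edgeR called 29.4% of all genes higher (36.8% with library totals). The log2 difference was 2.94 (SE 0.34) for H2-D1, 2.90 (SE 0.34) for Psmb9, 2.55 (SE 0.37) for Psmb8 and 1.56 (SE 0.26) for H2-K1, and 1.93 to 2.21 for Psmb10, B2m and Tap1. H2-K1, H2-D1, B2m, Tap1, Psmb8 and Psmb9 were higher in 10 of 10 libraries and Psmb10 in 9 of 10. Ubd had too few endothelial counts to be tested. On days 2 and 4 and in the day 7 libraries its endothelial level was 9.86, 83.2, 54.0 and 32.4 CPM against 29.5, 385, 355 and 513 in tubular cells. The macrophage levels of Ubd in the same libraries were 5.23, 51.3, 45.7 and 20.1 CPM, also below the tubular ones. On day 1 each of these classes had 1 Ubd UMI, and in the control and on days 11 and 14 each had 0, which allows up to 3, so no order can be read there. Macrophages were higher than tubular cells in the same 7 members, where 18.5% of all genes were called higher, by 1.71 for Psmb10 to 3.01 for Psmb8. Ubd was lower in macrophages by 3.21 on the log2 scale (SE 0.32, edgeR quasi-likelihood adjusted p = 2.14e-08), where 41.8% of all genes were called lower.

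Fewer members passed the test with injury in these classes. In endothelial cells H2-K1 stood at 509 CPM in the control, 990, 2261 and 2481 on days 1, 2 and 4, then 1607 and 1793 in the day 7 libraries, 798 and 529 in those of day 11, and 2126 and 1326 in those of day 14. The day 7 and day 14 libraries lay well above the control and the day 11 libraries closer to it. Against the control on day 7, 2 of the 8 members tested were called higher, where 1.35% of all genes were (1.75% with library totals), H2-K1 by 1.55 (SE 0.33, edgeR quasi-likelihood adjusted p = 0.00489) and B2m by 0.96 (SE 0.26, edgeR quasi-likelihood adjusted p = 0.0329). By DESeq2 the adjusted p for B2m was 0.273, and it was 0.0596 by edgeR without the second day 7 library, 0.112 without the first day 14 library and 0.102 without the second. B2m was also not called with the top 5% of barcodes removed (change 0.90, edgeR adjusted p = 0.0513). With library totals edgeR called 4 members, H2-D1 (adjusted p = 0.0333) and Ubd (0.0417, from 0 control UMIs) beside H2-K1 and B2m. On day 14 the same 2 genes were higher, against 0.323% of all genes, H2-K1 by 1.71 (SE 0.33, edgeR adjusted p = 0.00855) and B2m by 1.13 (SE 0.26, edgeR adjusted p = 0.0269). DESeq2 called neither, with adjusted p of 0.0616 for H2-K1 and 0.483 for B2m, and without either day 14 library B2m was not called by edgeR (adjusted p = 0.223 and 0.172).

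From day 7 to day 11, 5 of the 8 members were lower in endothelial cells, where 3.7% of all genes were called lower (6 of 8 members against 7.53% with library totals). B2m fell by 1.15 (SE 0.20), H2-K1 by 1.12 (SE 0.25), H2-D1 by 0.999 (SE 0.23) and Psmb8 by 0.93 (SE 0.30). The call for Psmb8 was lost in DESeq2 (adjusted p = 0.407) and without the second day 7 library (edgeR adjusted p = 0.511), where its change was -0.40. Without either day 11 library 2 of the 5 calls were left. Without the first, H2-D1, Psmb8 and Ubd were not called (edgeR adjusted p = 0.0589, 0.0821 and 0.179), and without the second, H2-K1, Psmb8 and Ubd were not (edgeR adjusted p = 0.143, 0.377 and 0.105). Psmb8 was also not called with the top 5% of barcodes removed (edgeR adjusted p = 0.112). Ubd had 9 and 14 UMIs on day 7 and 0 in each of the control, day 11 and day 14 endothelial sums, so no fold is given.

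In macrophages H2-K1 alone of the 7 members tested was higher on day 7, where 1.44% of all genes were (2.47% with library totals), and on day 14, where 0.284% were. It stood at 535 CPM in the control, from 42 cells, then at 1549 and 1867 in the day 7 libraries, 1310 and 866 in those of day 11, and 3097 and 2648 in those of day 14. The control lay below all 6 of these libraries. The log2 change was 1.53 on day 7 (SE 0.40, edgeR quasi-likelihood adjusted p = 0.0380) and 2.36 on day 14 (SE 0.41, edgeR quasi-likelihood adjusted p = 0.00645). The day 7 call for H2-K1 was lost without the second day 7, the second day 11 or either day 14 library (edgeR adjusted p at most 0.0628), and the day 14 call was lost without the second day 14 library (edgeR adjusted p = 0.0947). On day 14 B2m and H2-D1 were called as well under 4 alternatives, with no filter on low counts (edgeR adjusted p = 0.00843 and 0.0482), by DESeq2 (0.000122 and 0.00912), without the first day 7 library (edgeR, 0.0491 and 0.0460) and without the second (0.0415 and 0.0370). From day 7 to day 11 edgeR called 0 of the 7 members in macrophages, with 0 at an unadjusted p under 0.05 and 0 by DESeq2, where 4.28% of all genes were called in either direction, 3.40% higher and 0.877% lower (2.24% and 5.23% with library totals). The macrophage sums of the control, day 11 and day 14 held 34 to 93 cells each.

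**Figure D3:**
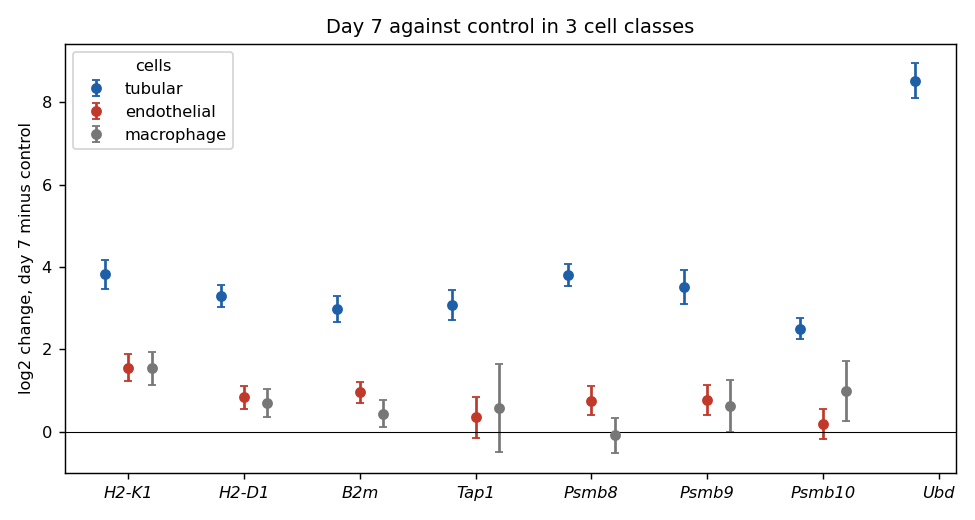
Change from control to day 7 on the log2 scale in tubular, endothelial and macrophage cells, with bars of 1 SE from edgeR, and for Ubd in tubular cells only. The tubular change lies above the endothelial and macrophage changes for H2-K1, H2-D1, B2m, Tap1, Psmb8, Psmb9 and Psmb10.

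The difference between the classes was itself tested as an interaction. The log2 change from control to day 7 was smaller in endothelial than in tubular cells for 7 of the 8 members, where edgeR called 4.32% of all genes lower (8.93% with library totals, where the same number of members was called). The difference was -2.43 (SE 0.26) for H2-K1, -2.63 (SE 0.25) for H2-D1, -2.18 (SE 0.21) for B2m, -2.92 (SE 0.66) for Tap1, -3.25 (SE 0.34) for Psmb8, -2.92 (SE 0.33) for Psmb9 and -2.49 (SE 0.39) for Psmb10 on the log2 scale. The edgeR adjusted p was highest for Tap1 at 0.000404. Ubd was not called, with 0 endothelial UMIs in the control. This test rests on 1 control library, and edgeR put no limit on the degrees of freedom borrowed from other genes, so that the spread of each gene's own libraries added nothing to its p. The difference between macrophages and tubular cells in this change was not tested. In CPM, B2m and H2-D1 rose by more in endothelial than in tubular cells. B2m went from 3450 to a day 7 mean of 7689 CPM in endothelial cells, against 261 to 3513 and 3512 in tubular cells. H2-D1 went from 1381 to 2822 CPM, against 70.3 to 1209 and 1171. For H2-K1 and Psmb10 the rise in CPM was larger in tubular cells. For Tap1, Psmb8 and Psmb9 the rises of the day 7 libraries overlapped between the classes.

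The share of cells with a Ubd UMI followed its level. It was 0.111% of tubular cells in the control (exact 95% interval 0.0408 to 0.242), and 2.05%, 4.22% and 29.7% on days 1, 2 and 4. The day 7 libraries gave 24.6% and 26.3% for Ubd, the day 11 libraries 0.402% and 0.323%, and the day 14 libraries 0.171% and 0.241%. With each cell thinned to 500 UMIs, which left out no tubular cell, the Ubd shares were 0.0371% in the control, 13.0% on day 4 and 12.0% and 12.5% on day 7. The rise of the share thus stood at equal depth.

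Ubd UMIs lay mostly in tubular cells. On day 7 its mean level was 573 CPM in proximal tubule cells (676 and 471 in the 2 libraries) and 501 CPM in cells with injured-tubule markers (369 and 634), whose ranges overlap. All other classes lay below both, from endothelial cells at 43.2 CPM and stromal cells at 38.9 to macrophages at 32.9, T and NK cells at 31.8, collecting duct principal cells at 15.8 and thick ascending limb cells at 7.23. Among the first 5 of these lower classes, the neighbours in order overlap in range. Of all Ubd UMIs in kept cells, 75.6% and 92.4% were in tubular cells on day 7 and 94.98% on day 4. Tubular cells held 58.9% and 64.6% of all UMIs of kept cells on day 7 and 87.1% on day 4, so the day 4 value lies closer to that base.

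As shares of cells, 41.4% and 30.3% of proximal tubule cells and 25.5% and 33.1% of injured-tubule cells had a Ubd UMI on day 7. The share was 2.94% and 2.01% in thick ascending limb cells, 5.6% and 4.11% in endothelial cells, 6.25% and 3.66% in macrophages and 5.08% and 3.17% in T and NK cells. The low shares in these other classes are the background beside which the tubular shares of Ubd are read, at median depths of 1727 and 2234 UMIs per thick ascending limb cell against 1598 and 2046 per proximal tubule cell. Thinned to 500 UMIs, the Ubd share was 18.9% and 13.0% in proximal tubule cells, 0% and 1.01% in thick ascending limb cells and 2.52% and 1.70% in macrophages. The thick ascending limb, a tubular segment, therefore lay with the non-tubular classes in Ubd, though its H2-K1 was 895 CPM on day 7 against 79.8 in the control.

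**Figure D4:**
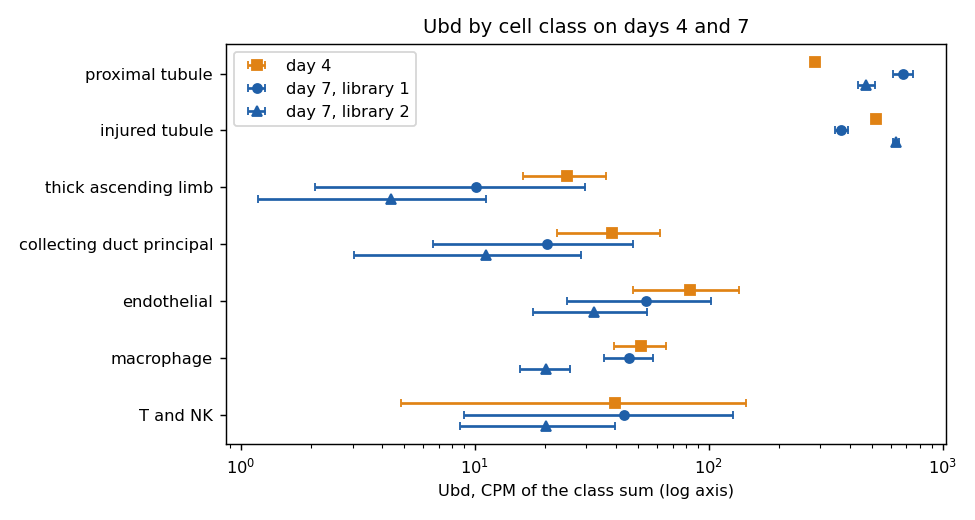
Ubd in 7 cell classes on day 4 (1 library) and day 7 (2 libraries), as CPM on a log axis with exact 95% Poisson bars that cover counting error only. On day 7 proximal tubule cells and cells with injured-tubule markers lie between 369 and 676 CPM, and endothelial cells, the next class, at 54.0 and 32.4.

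Tubular cells were then divided by transcripts of Vcam1, an adhesion molecule for leukocytes, and Havcr1 (KIM-1), a marker of tubular injury. Cells with a Vcam1 UMI were 0.0556% of tubular cells in the control (3 cells), then 5.58%, 6.13% and 32.3% on days 1, 2 and 4, 25.3% and 25.1% in the day 7 libraries, and 0.234% to 0.715% later. Within the 7 libraries with enough cells of both kinds, they were compared with tubular cells that had neither transcript, with the library as a block. Both kinds were drawn from all tubular segments without matching. Cell state and segment thus cannot be told apart in this comparison or in the Havcr1 one below. Cells with a Vcam1 UMI were the deeper, with medians of 1831 and 3246 UMIs on day 7 against 1464 and 2120. CPM is a share of all UMIs and does not rise with depth.

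Ubd was far higher in the Vcam1-positive cells of all 7 libraries. Its level there was 82.1, 162 and 747 CPM on days 1, 2 and 4, then 993 and 1412 in the day 7 libraries and 76.0 and 125 in those of day 11. In the cells with neither transcript Ubd stood at 3.95, 9.47, 62.0, 58.5 and 42.0, and 1.75 and 1.77 CPM in the same order. The 2 ranges do not overlap, but the day 11 values of Vcam1-positive cells rest on 7 and 6 UMIs in 32 and 24 cells. The log2 difference for Ubd was 4.34 (SE 0.24, edgeR quasi-likelihood adjusted p = 6.47e-07). Of the tubular Ubd UMIs, 61.5%, 69.4% and 86.6% on days 1, 2 and 4 were in Vcam1-positive cells. The day 7 libraries gave 76.9% and 90.1%, and those of day 11 gave 28% and 25%. Vcam1-positive cells were 5.58%, 6.13% and 32.3% of tubular cells on days 1, 2 and 4. They were 25.3% and 25.1% on day 7 and 0.715% and 0.516% on day 11. Being deeper on days 4 and 7, they held a larger share of tubular UMIs than of tubular cells, which is not given here. Thinned to 500 UMIs, 33.5% and 34.1% of Vcam1-positive cells had a Ubd UMI on day 7 against 2.65% and 3.64% of cells with neither.

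The other members were also higher in Vcam1-positive cells, 8 of 8 with Ubd, where edgeR called 9.81% of all 11513 genes tested higher (14.7% with library totals) and the median over all genes was -0.01 against 1.24 for the members. H2-K1 lay between 566 and 2958 CPM in Vcam1-positive cells and between 75.0 and 1061 in cells with neither, and was higher in 7 of 7 libraries by 1.35 (SE 0.23) on the log2 scale. B2m was higher by 1.32 (SE 0.17), H2-D1 by 1.05 (SE 0.16), Psmb8 by 1.17 (SE 0.31) and Psmb10 by 1.53 (SE 0.17), each in 7 of 7 libraries. Psmb9 was higher by 0.84 (SE 0.16) and in 6 of 7 libraries. Tap1 was higher by 0.73 (SE 0.23, edgeR quasi-likelihood adjusted p = 0.0376) but in 4 of 7 libraries only. Its call was lost in DESeq2 (adjusted p = 0.108) and without either day 7 library or either day 11 library (edgeR adjusted p from 0.0514 to 0.128). Without the day 4 library 6 of the 8 members were called, with an edgeR adjusted p of 0.241 for Tap1 and 0.0716 for Psmb8.

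In the wider lists, 5 of 6 other class I genes, 10 of 17 interferon and NF-kB genes and 3 of 7 peptide loading genes were higher in Vcam1-positive cells by edgeR, and DESeq2 called 4, 9 and 3. Over all genes tested edgeR called 9.81% higher. Psme1 and Psme2 were 2 of the 5 activator and assembly genes called higher, by 0.47 and 0.64, and DESeq2 called 1 of the 5. For the 3 constitutive catalytic subunits and the 11 other 20S subunits edgeR called 0, with 0 at an unadjusted p under 0.05 and 0 by DESeq2. The medians of these subunit lists were 0.04 and 0.12, and with library totals edgeR called 1 of the 11 higher.

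Fewer members were called in cells with a Havcr1 but no Vcam1 UMI. Of the 8 members, 2 were called higher than in cells with neither transcript over 10 libraries, where edgeR called 5.09% of all 11077 genes tested higher (9.72% with library totals). Ubd was higher by 1.83 (SE 0.24, edgeR quasi-likelihood adjusted p = 0.000189) and in 7 of 10 libraries, its Havcr1-positive sums having 0 UMIs in the control and on day 14 and 1 UMI in each day 11 library. On day 7 its level in these cells was 325 and 304 CPM, between those of the Vcam1-positive cells and of the cells with neither. B2m was higher by 0.40 (SE 0.11, edgeR quasi-likelihood adjusted p = 0.0202) and in 10 of 10 libraries. The B2m call was lost with the top 5% of barcodes removed (edgeR adjusted p = 0.184), where Psmb10 was called (0.0426), and without either day 7 library (edgeR adjusted p = 0.0519 and 0.0565). H2-K1 had a log2 difference of -0.01, H2-D1 -0.03, Psmb8 -0.20 and Psmb9 -0.12, none past the test, and each of these 4 was above 0 in tubular cells with no immune marker UMI, again not called. The difference between the Vcam1 and Havcr1 contrasts was not tested.

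**Figure D5:**
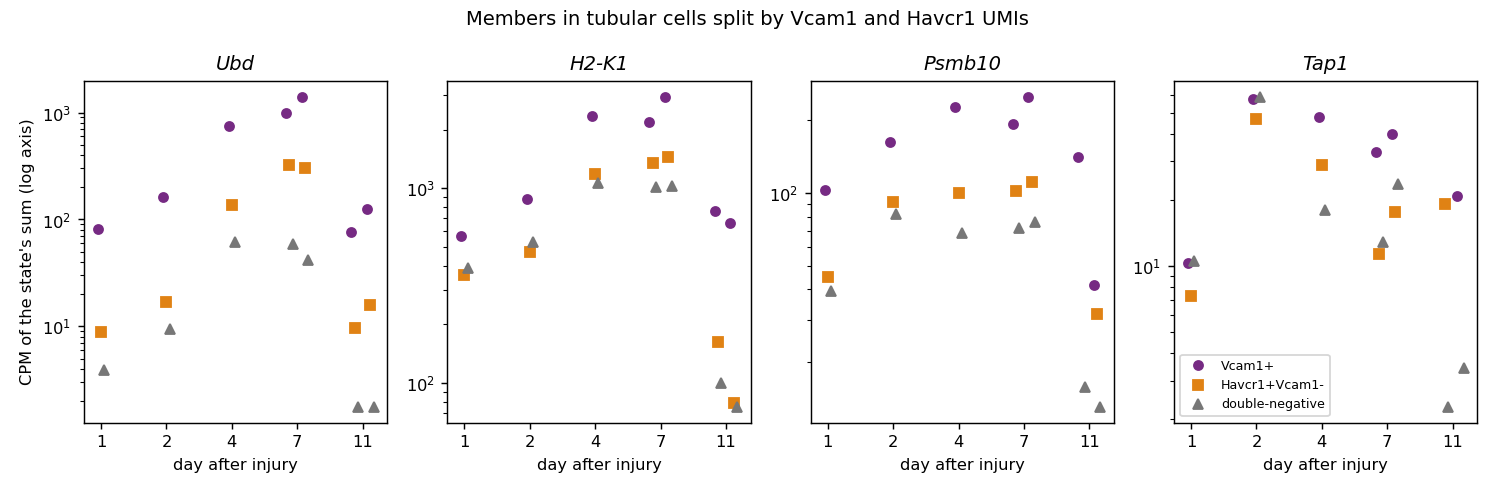
Levels of Ubd, H2-K1, Psmb10 and Tap1 in tubular cells with a Vcam1 UMI, with a Havcr1 but no Vcam1 UMI, and with neither (double-negative), on days 1 to 11, as CPM on a log axis with 1 point per library, where sums with 0 UMIs are not drawn. Ubd is higher in the Vcam1-positive cells of all 7 libraries, from 76.0 to 1412 CPM against 1.75 to 62.0 in the cells with neither.

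The balance of the 2 heavy chains was read as the ratio of their UMIs. The ratio of H2-K1 to H2-D1 UMIs in tubular cells was 0.911 in the control (exact 95% interval 0.854 to 0.972), 1.65, 1.76 and 1.21 on days 1, 2 and 4, and 1.15 and 1.45 on day 7. It was 1.15 and 0.639 on day 11 and 3.56 and 2.48 on day 14. The day 14 libraries were the highest of all 10, with counting intervals of 3.38 to 3.74 and 2.35 to 2.63. The 2 libraries of days 7, 11 and 14 each differed from one another by more than counting error, and the difference between days was not tested. In proximal tubule cells the day 14 ratios of H2-K1 to H2-D1 were 4.39 and 3.09. In endothelial cells the ratio was 0.368 in the control and 0.625 and 0.480 on day 14, and in macrophages 0.460 and then 1.01 and 0.908. H2-D1 thus had more UMIs than H2-K1 in endothelial cells of every library, while in tubular cells H2-K1 had more in 8 of 10. Reads shared among class I genes enter both counts.

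The 8 patterns over the 10 tubular sums were alike, which is given as a description over libraries that share their cells and depth. The highest Pearson r of log2(CPM + 1) between members was 0.996 for H2-D1 with Ubd, then 0.990 for Psmb8 with Psmb10 and 0.988 for H2-K1 with B2m. The lowest was 0.845 for H2-K1 with Tap1. Among the 6313 other genes with a mean of at least 20 CPM, those most like Ubd were Vars (r = 0.996), Rbbp4 (0.994) and H2-Q7 (0.991). Rbbp4 went from 63.8 CPM in the control to 124 and 137 on day 7, so that a high r stands beside a far smaller change. Those most like Psmb8 were Tapbp (0.994), Psme2b (0.988) and Tap2 (0.986), and those most like H2-K1 were Leprotl1 (0.983), Npc2 (0.981) and Gnai3 (0.968).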

How the data were processed

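Per the labels' protocols, kidney cortex suspensions were processed by Drop-seq and sequenced at the 3′ end. The authors deposited a table of counts for each library, with gene symbols against cell barcodes. Its whole numbers were read as UMI counts, which the labels do not state. The submitters' processing notes name Bowtie2 2.2.7 and the mm10 build. The annotation and barcode filters are not given in the sources used here. Groups came from titles and time labels. The members and lists were chosen with earlier results of these data known.

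Cells kept had 500 or more UMIs, 500 or more genes and a mitochondrial share of 50% or less. A cell joined a class when 3 or more of the class's marker genes had a UMI. In addition, no other class could have more than 50% of that number of marker genes with a UMI. The tubular classes were not set against one another here (134 markers of 13 classes, 132 in the tables, 6 classes tubular). No doublet caller was run. Counts were summed over classes of 20 or more cells per library and tested with edgeR 4.0.16 (R 4.3.3): TMM scaling, its low-count filter, the quasi-likelihood F test and Benjamini-Hochberg adjustment over all genes at 0.05. SE is the log2 change over the square root of F, and restates the test. Intervals are exact at 95% and cover counting error alone, and 0 counts allow up to 3. From each list up to 3 called genes with the largest change were named, others because 5 or fewer were called or as stated.

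The fits were tested on simulated data drawn from the real library sizes and from 1 mean profile shared by all libraries. The shift in composition between the real control and day 7 libraries was thus absent from them. Changed genes were drawn only from those above a floor of mean counts, so recovery at lower counts was not measured. The simulated spread followed the trend with level, without differences between genes of like level. Tubular day 7 against control recovered 94% of 100 genes changed 4-fold (15291 genes tested), the Vcam1 comparison 77% of 100 changed 2-fold (11411 tested) and the interaction 87.5% of 200 changed 4-fold (14659 tested). Unchanged genes called numbered 11, 4 and 5 in the same order. Alternatives were DESeq2 1.42.0, library totals in place of TMM (added after the data had been seen), no low-count filter, other cell filters and gates, removal of the top 5% of barcodes by UMIs, only the groups compared, the replicate number as a block, and each library of days 7, 11 and 14 left out in turn, and for the comparisons within libraries also the 4 others, a step added after the data had been seen.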

Additional observations from a re-analysis of the deposited data

Results flagged for a closer look

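The change from control to day 7 differed between endothelial and tubular cells for 7 of the 8 genes, by the interaction test of the difference itself (endothelial minus tubular, log2 scale, quasi-likelihood test of edgeR, p adjusted after Benjamini and Hochberg). The fit had 3 residual degrees of freedom, to which edgeR added an unlimited number borrowed from the other genes, and the change rests on 1 control library. The small p-values therefore assume that genes of like level vary alike between libraries. For the class I chains it was -2.43 for H2-K1 (adjusted p = 6.23e-18), -2.63 for H2-D1 (adjusted p = 1.09e-23) and -2.18 for B2m (adjusted p = 2.55e-22). For the transporter Tap1 it was -2.92 (adjusted p = 0.000404). For the immunoproteasome subunits it was -3.25 for Psmb8 (adjusted p = 2.48e-19), -2.92 for Psmb9 (adjusted p = 3.04e-16) and -2.49 for Psmb10 (adjusted p = 1.04e-08). The endothelial control levels were the higher, 192 CPM of Psmb8 against 8.92 in tubular cells and 509 CPM of H2-K1 against 64.1. In CPM, B2m and H2-D1 rose by more in endothelial than in tubular cells, and H2-K1 and Psmb10 by less.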

How the results depend on the processing

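Over all alternatives the members gave 1956 values, of which 1875 kept their side of the threshold, 45 passed it newly and 36 no longer passed it. The sign changed, or the value became 0, in 64, of which 0 were called in either setting, and 1811 kept both sign and side. The number of members called in macrophages on day 14 against control was 3 with no filter on low counts and 3 by DESeq2. In endothelial cells DESeq2 called 1 on day 7, 0 on day 14 and 3 from day 7 to day 11. With the top 5% of barcodes removed the counts were 1 for endothelial cells on day 7, 0 for macrophages on day 7 and 3 for tubular cells on day 11 against control. The last count was 2 in proximal cells alone and 2 with only the groups compared. With library totals in place of TMM 4 were called for endothelial cells on day 7, and the other 16 comparisons kept their counts within 1.5 times. The Ubd share of tubular cells on day 7, thinned to 1000 UMIs, was 19.8% and 19.2% against 12.0% and 12.5% at 500. At 1000 UMIs more molecules are drawn per cell and shallower cells are left out. The thinned shares at 500 and 1000 are thus not alike in detection. The cause of the other shifts was not tested.

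Leaving out 1 library of days 7, 11 and 14 at a time, the tubular counts were 8 to 8 on day 7 and 8 to 8 from day 7 to day 11, 0 to 2 on day 11, 2 to 4 on day 14, 7 to 8 from day 7 to day 14 and 2 to 3 from day 11 to day 14. The macrophage counts were 0 to 1 on day 7, 0 to 3 on day 14 and 0 to 0 from day 7 to day 11. The endothelial counts were 1 to 3 on day 7, 1 to 3 on day 14 and 2 to 5 from day 7 to day 11. The count was 7 to 7 for the interaction. Leaving out each of the 10 libraries, it was 6 to 8 for Vcam1-positive cells (6 without day 4), 1 to 2 for Havcr1-positive cells, 7 to 8 for endothelial and 7 to 8 for macrophage against tubular cells. The Vcam1 fit used 7 libraries, so leaving out the control or a day 14 library could not change it. These unchanged values are counted above among those that kept their side of the threshold. With the replicate number as a block 8, 8 and 3 members were called from day 7 to 11, 7 to 14 and 11 to 14. Deviations of same-numbered libraries correlated at 0.04, -0.02 and -0.05, so they showed no common direction over the genes. These values cannot settle whether same-numbered libraries share an animal or a preparation. The added call was Ubd from day 11 to day 14, with a change of -1.16 and an edgeR adjusted p of 0.0315.

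Depth limits Tap1, with 46 control UMIs in tubular cells and 2 in control macrophages, and Ubd outside tubular cells. Single libraries on days 1, 2 and 4 and in the control have no replicate check.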

Other observations

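The ratio of H2-K1 to H2-D1 UMIs differed between the 2 day 11 libraries in the same direction in 5 classes. It was 1.15 and 0.639 in tubular cells, 1.11 and 0.625 in proximal tubule cells, 1.16 and 0.531 in thick ascending limb cells, 0.798 and 0.375 in endothelial cells and 1.17 and 0.565 in macrophages. The exact 95% intervals of the 2 libraries did not overlap in any of these 5 classes. In Vcam1-positive tubular cells the ratio was 2.12 (1.38 to 3.31) and 1.45 (0.819 to 2.63), with intervals that overlap, and in tubular cells with neither a Vcam1 nor a Havcr1 UMI it was 1.11 and 0.624, with intervals that do not.

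Irf7 was highest in tubular cells on day 2, at 211 CPM against 0.576 in the control, 115 on day 4 and 22.3 and 34.3 on day 7. Tap1 and Irf7 thus had the same highest library. On day 14 the 2 libraries of Irf7 stood apart, at 1.97 and 11.2 CPM.

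Cells left without a class on day 7 had too few markers or had markers of several classes. They had a Ubd UMI in 18.6% and 15.7% of cases, between the shares of the tubular and of the immune classes.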
